A study of Mus musculus with 21 samples.

Results

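The epithelial sodium channel and the transcripts that carry the aldosterone response of the kidney were examined by RNA-seq in apoE knockout mice with and without adenine-induced kidney disease. The group consists of 10 genes, chosen by name for their textbook roles, of the 20634 genes found in both deposited tables. They are the channel subunits Scnn1a, Scnn1b and Scnn1g, the mineralocorticoid receptor Nr3c2, the enzyme Hsd11b2, the regulators Sgk1 and Nedd4l, and the steroid-induced transcripts Tsc22d3, Fkbp5 and Per1. All 10 passed the filters on low counts in every comparison.

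Every mouse was a female that lacked apoE in all tissues (apoE knockout on the C57BL/6J background), and whole kidneys were taken at 18 weeks of age after 14 weeks of diet. The 5 Con mice ate chow, the 6 Ade mice ate chow with adenine, which injures the tubules and interstitium, and the 6 Ade + IMC mice ate adenine together with iodomethylcholine (IMC), an inhibitor of the bacterial enzyme that makes trimethylamine from choline. No wild-type mice were included, and the fourth labelled group, Con + IMC with 4 mice, was not analysed here, so an effect of IMC without adenine cannot be read. Library totals were 7716126 to 11680809 counts in Con mice, 5444833 to 7673215 in Ade mice and 5728589 to 8305968 in Ade + IMC mice. The lowest raw count of any of the 10 genes in any mouse was 100, for Nr3c2 in an Ade mouse, and the highest was 2641, for Hsd11b2 in a Con mouse. The library of Ade + IMC mouse 311 stood apart from the rest of its group over all genes, with a chi-square per degree of freedom of 44.3 to 75.4 against each of the other 5 libraries, beside 9.72 to 33.8 among those 5, and the changes in the Ade + IMC group are also given without it.

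Sodium is taken up from the urine by the principal cells of the connecting tubule and collecting duct through a channel of 3 related subunits in the apical membrane, and is pumped out on the blood side by the sodium-potassium ATPase. Aldosterone binds the mineralocorticoid receptor in these cells, and the receptor then switches on genes such as Sgk1, a kinase that phosphorylates the ubiquitin ligase Nedd4-2 and so keeps the channel at the cell surface. Corticosterone binds the same receptor, and the enzyme encoded by Hsd11b2 inactivates it inside the cell, which leaves the receptor to aldosterone. Transcripts such as Tsc22d3, Fkbp5 and Per1 respond to both classes of steroid through the mineralocorticoid or the glucocorticoid receptor and are made in many cell types.

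Compared to Con, the Ade kidneys held less RNA of all 3 channel subunits, of Hsd11b2, of the receptor Nr3c2 and of Nedd4l, and more RNA of Tsc22d3 and Fkbp5. Of the 10 transcripts, 8 were called (6 lower, 2 higher) at an adjusted p below 0.1 in edgeR's quasi-likelihood test, whereas 67.3% of all 14612 genes tested were called, 32.2% lower and 35.1% higher. The largest difference among the 10 was in Nr3c2, whose mean in the Ade group was 0.522 of the Con mean. Sgk1 and Per1 were not called. The median log2 fold change of the 10 was -0.56, beside 0.02 over all genes tested.

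**Figure D1:**
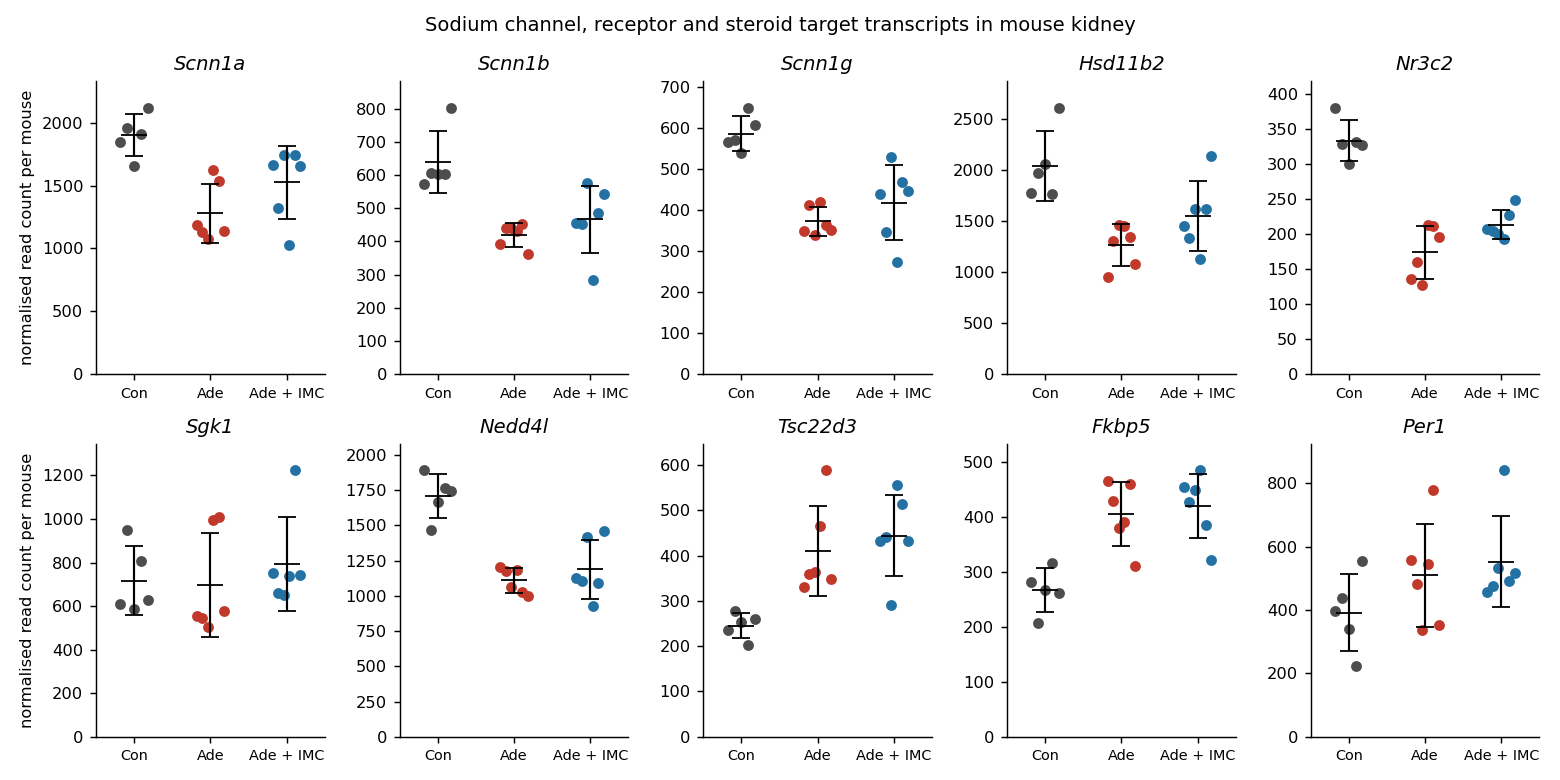
Normalised read count (y axis, from 0) of each of the 10 transcripts in every mouse of the Con, Ade and Ade + IMC groups (x axis); each point is 1 mouse, the long tick is the group mean and the bar is 1 SD. The 6 Ade mice lie below all 5 Con mice for Scnn1a, Scnn1b, Scnn1g, Hsd11b2, Nr3c2 and Nedd4l and above them for Tsc22d3, and 2 of the 6 Ade mice stand well above the other 4 for Sgk1.

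Levels are given below as normalised read counts, that is counts divided by a library size factor set over the 17 mice. Scnn1a (chromosome 6, 125320659 to 125344943, plus strand, GRCm38) encodes the alpha subunit, without which little channel reaches the membrane. Its normalised read count was 1847, 1958, 1659, 1913 and 2119 in the 5 Con mice. In the 6 Ade mice it ran from 1073 through a median of 1160 to 1621. The groups did not overlap, with the highest Ade mouse just under the lowest Con mouse. Scnn1a fell by 0.54 on the log2 scale (SE 0.12, adjusted p = 0.00178).

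Scnn1b and Scnn1g, which encode the beta and gamma subunits, are neighbours on chromosome 7 (121865038 to 121918514 and 121734479 to 121768475, both on the plus strand). The normalised read count of Scnn1b was 573, 606, 604, 605 and 803 in the Con mice. It ran from 361 through a median of 435 to 453 in the Ade mice. Again no Ade mouse reached the lowest Con mouse, and Scnn1b fell by 0.57 on the log2 scale (SE 0.10, adjusted p = 0.000226). With the Con mouse at 803 left out the change was -0.48 and Scnn1b was still called. Scnn1g had normalised read counts of 564, 570, 539, 649 and 606 in Con. Its range in Ade was 339 to 418 with a median of 356. Scnn1g fell by 0.62 on the log2 scale (SE 0.08, adjusted p = 2.18e-05), and the groups were well apart.

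Per kilobase of exon, the alpha subunit was the most abundant. In Con mice the normalised read count per kilobase was 459.7 ± 40.6 for Scnn1a, 242 ± 35.5 for Scnn1b and 196 ± 14.3 for Scnn1g (SD, n = 5). The beta and gamma subunits were next to each other in this order, and in Ade mice their ranges per kilobase overlapped (137 to 172 for Scnn1b and 113 to 139.8 for Scnn1g). No difference in the balance between the subunits was detected. The log2 ratio of Scnn1b to Scnn1a was -1.58 ± 0.14 in Con and -1.59 ± 0.24 in Ade (SD, n = 5 and 6), and 0 of the 6 comparisons of the 3 ratios gave a difference (two-sided exact permutation tests, unadjusted p from 0.297 to 0.926, Benjamini-Hochberg adjusted over the 6 from 0.851 to 0.926). The smallest p that these tests can give is 0.00216. Across the 6 comparisons the differences in log2 ratio lay between -0.13 and 0.02.

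Hsd11b2 (chromosome 8, 105518755 to 105523988, plus strand) had the highest level per kilobase of the 10 transcripts in all groups, at 1109 ± 188 in Con (SD, n = 5). Its normalised read count was 1781, 1975, 2064, 1769 and 2615 in the Con mice. In Ade mice it ran from 950.1 through a median of 1325 to 1463. All Ade mice were below all Con mice, and Hsd11b2 fell by 0.66 on the log2 scale (SE 0.14, adjusted p = 0.000864).

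Nr3c2 (chromosome 8, 76899442 to 77245012, plus strand), the receptor for aldosterone, was present at 381, 329, 301, 331 and 327 normalised read counts in the Con mice. In Ade mice the counts ran from 128 through a median of 178 to 213. This gap was wide, and Nr3c2 fell by 0.91 on the log2 scale (SE 0.13, adjusted p = 6.37e-05). Of its exon bases, 247 also lie in Gm10649 on the other strand, and since the use of strand in counting is not stated, reads of the 2 genes over these bases cannot be told apart.

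Nedd4l encodes Nedd4-2, the ubiquitin ligase that removes the channel from the membrane, so the transcript of an inhibitor of the channel was lower together with those of the channel itself. Nedd4l (chromosome 18, 64887705 to 65217828, plus strand) had normalised read counts of 1890.1, 1469, 1665, 1765 and 1745 in Con. Its range in Ade was 997 to 1205, with a median of 1122. The groups did not overlap, and Nedd4l fell by 0.59 on the log2 scale (SE 0.09, adjusted p = 6.59e-05). Its exons share 277 bases with A330084C13Rik on the opposite strand, with the same limit as for Nr3c2.

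Sgk1 (chromosome 10, 21882184 to 21999903, plus strand), the kinase that opposes Nedd4-2 and the best known early target of aldosterone in this segment, did not follow the other channel transcripts. Its normalised read count was 608, 951, 588, 807 and 629.8 in Con mice. In the Ade mice it was 555 (mouse 207), 546 (mouse 208), 502 (mouse 308), 996 (mouse 407), 1007 (mouse 408) and 578 (mouse 409). Thus 2 Ade mice were above every Con mouse and the other 4 below every Con mouse, and the mean difference was -0.01 on the log2 scale (SE 0.21, adjusted p = 0.983). Mice 407 and 408 also had the highest levels of Scnn1a, Nr3c2 and Tsc22d3 among the Ade mice. The coefficient of variation of Sgk1 among Ade mice was 34.0%, the largest of the 10 transcripts in that group, beside 8.10% for Nedd4l, the smallest.

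Tsc22d3 (chromosome X, 140539528 to 140600659, minus strand) encodes GILZ, an anti-inflammatory leucine zipper protein and a standard reporter of glucocorticoid receptor activity that also promotes channel activity. Its normalised read count was 236, 277, 253, 202 and 259 in the Con mice. In Ade mice it ran from 332 through a median of 362 to 588, above all Con mice. Tsc22d3 rose by 0.77 on the log2 scale (SE 0.15, adjusted p = 0.000564). Fkbp5 (chromosome 17, 28399094 to 28517527, minus strand) encodes a co-chaperone that lowers the affinity of the glucocorticoid receptor for its ligand. It was at 281, 207, 268, 317 and 262 in Con. Its range was 311 to 466.1 in Ade, with a median of 409.7. Of the 6 Ade mice, 5 were above every Con mouse and 1 lay within the Con range, and Fkbp5 rose by 0.64 on the log2 scale (SE 0.12, adjusted p = 0.000525).

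Per1 (chromosome 11, 69095217 to 69109960, plus strand), a clock gene that is induced by both steroids and activates transcription of Scnn1a, varied more between mice. Its normalised read count was 398, 437, 341, 224 and 555 in Con. It ran from 338 through a median of 513 to 779 in Ade. The groups overlapped widely, with a difference of 0.42 on the log2 scale that was not called (SE 0.24, adjusted p = 0.146). Per1 was called when Con mouse 403, Ade mouse 308 or Ade mouse 409 was left out (adjusted p = 0.0577, 0.0741 and 0.0809).

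Counted over the 10, the 7 transcripts whose Ade and Con groups did not overlap were Scnn1a, Scnn1b, Scnn1g, Hsd11b2, Nr3c2, Nedd4l and Tsc22d3. Over the 14634 genes with a mean normalised read count of at least 10, 43.4% did not overlap either.

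**Figure D2:**
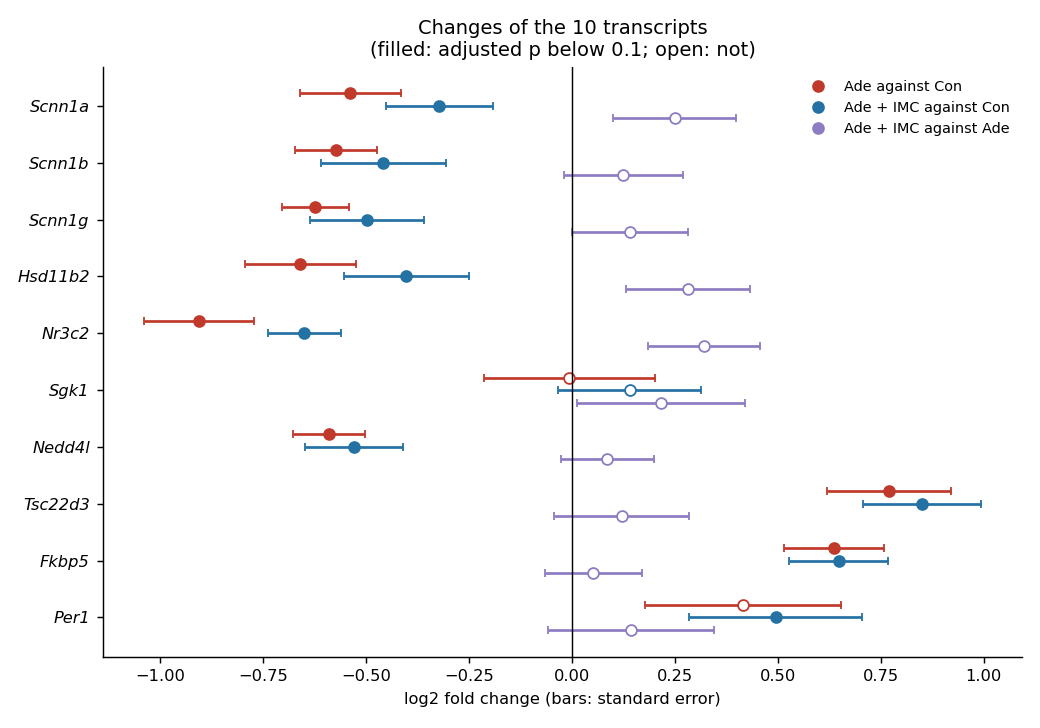
Log2 fold change of each of the 10 transcripts (x axis; bars are 1 SE) in the comparisons of Ade with Con, Ade + IMC with Con and Ade + IMC with Ade; filled points had an adjusted p below 0.1. The 6 channel, receptor, Hsd11b2 and Nedd4l transcripts lie to the left of 0 in both comparisons with Con, Tsc22d3 and Fkbp5 to the right, and the 10 open points of Ade + IMC against Ade lie between 0.05 and 0.32.

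Short stretches before the start sites of the steroid-induced transcripts and Sgk1 are shown because these transcripts rose or varied most between mice. RefSeq promoter windows (GRCm38.p6, 250 bases before to 50 after a start site) were found for 7 of the 10 genes, in 15 windows. They were searched on both strands for the palindromic steroid receptor element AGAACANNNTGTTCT, for its half-site AGAACA and for the E-box CACGTG that clock proteins bind. The palindrome was found in 0.00913% (3) of all 32851 promoter windows of this length, the half-site in 19.0% and the E-box in 7.15%. Of the 7 genes searched, Sgk1 alone had a window with the palindrome, and no window was searched for Scnn1a, Hsd11b2 and Nedd4l. Capitals mark these matches, and each line runs 5′ to 3′ on the strand of the gene and stops before the start site or the first annotated exon base.
Sgk1, window 5 of 6, chr10:21993640-21993889, plus strand: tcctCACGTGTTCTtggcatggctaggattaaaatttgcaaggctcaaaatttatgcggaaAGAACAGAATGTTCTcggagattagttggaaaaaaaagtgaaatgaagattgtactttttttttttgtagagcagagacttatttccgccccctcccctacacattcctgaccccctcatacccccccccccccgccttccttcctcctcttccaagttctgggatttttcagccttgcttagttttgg
Tsc22d3, window 2 of 3, chrX:140600660-140600772, minus strand: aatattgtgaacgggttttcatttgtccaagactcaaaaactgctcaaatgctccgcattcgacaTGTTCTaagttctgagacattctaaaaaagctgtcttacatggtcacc
Fkbp5, the only window, chr17:28486150-28486399, minus strand: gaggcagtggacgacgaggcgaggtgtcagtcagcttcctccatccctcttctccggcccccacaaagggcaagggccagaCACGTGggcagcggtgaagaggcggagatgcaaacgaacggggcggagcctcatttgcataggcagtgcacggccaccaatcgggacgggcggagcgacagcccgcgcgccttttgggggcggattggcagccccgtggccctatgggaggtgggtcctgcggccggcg
Per1, window 1 of 2, chr11:69098699-69098947, plus strand: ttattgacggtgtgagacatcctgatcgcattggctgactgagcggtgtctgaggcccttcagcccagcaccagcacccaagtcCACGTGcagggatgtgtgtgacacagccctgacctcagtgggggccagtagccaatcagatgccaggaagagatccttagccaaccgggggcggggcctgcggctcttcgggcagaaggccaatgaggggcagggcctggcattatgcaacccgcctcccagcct

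In the Sgk1 window the palindrome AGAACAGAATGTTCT begins 189 bases before the start site, and further upstream an E-box and a half-site on the other strand overlap (CACGTGTTCT). The Tsc22d3 window held a half-site on the other strand, 185 bases before the start site. Fkbp5 and Per1 held an E-box 169 and 166 bases before theirs. A match describes the letters in the window and was not tested as a binding site, and windows without a match say nothing about sites elsewhere.

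The channel, the receptor and Hsd11b2 are made mainly in principal and neighbouring distal cells, and markers of these cells were also lower in the Ade kidneys. Aqp2, the vasopressin-regulated water channel of the principal cell, fell by 1.28 on the log2 scale (adjusted p = 0.000586), and Aqp3, on the blood side of the same cell, fell by 1.27 (adjusted p = 3.87e-05). Of the 6 principal cell markers 5 passed the filter, of which 3 fell and 2 were not called. Their summed normalised read count was 1988 to 4074 in Con, 1129 to 1622 in Ade and 1581 to 2789 in Ade + IMC. Gata3, a transcription factor of these cells, did not go with the water channels, at 291 to 304 in Con, 269 to 356 in Ade and 287 to 465.9 in Ade + IMC. The sixth marker, the vasopressin receptor Avpr2, was near the floor, at 0 to 7.67 in Con and 2.84 to 14.1 in Ade. Of 8 markers of the distal convoluted and connecting tubule 6 fell, and of 6 intercalated cell markers 5 fell, beside 32.2% of all genes called lower. In whole kidney RNA, fewer cells of a type and less RNA per cell cannot be told apart.

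Relative to the mean log2 level of all 6 principal cell markers, Avpr2 included, the differences of Scnn1a, Scnn1b, Scnn1g and Hsd11b2 between Ade and Con were -0.11 to 0.0005 in log2 ratio (two-sided exact permutation tests, adjusted p = 1 in all 4 over the 8 comparisons made). The spread of this ratio among the 5 Con mice was wide, with an SD of 0.68 to 0.73, and the value depended on the low markers. Without Avpr2 the differences were 0.19 to 0.30 (exact permutation tests, adjusted p = 0.545 in each), and without Avpr2 and Elf5, which was at 2.96 to 85.4 in Con, they were 0.25 to 0.35 with an SD of 0.41 to 0.48 in Con (adjusted p from 0.173 to 0.223). Relative to Aqp2 alone, the differences were 0.54 to 0.65, and those of Scnn1a, Scnn1b and Hsd11b2 passed the test (adjusted p = 0.0891 in each) while that of Scnn1g did not (adjusted p = 0.119). Relative to Gata3 alone they had the other sign, at -0.59 to -0.70, and all 4 passed (exact permutation tests, adjusted p from 0.00866 to 0.0216), so the direction depends on the marker taken. Between Ade + IMC and Ade, the differences relative to the marker mean were -0.20 to -0.36 (adjusted p from 0.476 to 0.524), and relative to Aqp2 alone they were -0.47 to -0.63 (exact permutation tests, adjusted p = 0.0260 in each). Relative to Gata3 alone they were -0.10 to 0.06 (exact permutation tests, adjusted p from 0.848 to 0.870). Without Ade + IMC mouse 310 the differences relative to the marker mean passed the test, at -0.30 to -0.50 (exact permutation tests, adjusted p from 0.0216 to 0.0779). Aqp2 itself was at 419 to 782 in Ade and 779 to 1619.8 in Ade + IMC.

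Other cell types differed as well, in both directions. All 6 proximal tubule markers fell, with a median log2 fold change of -2.22, a larger drop than that of any channel transcript, and all 3 red cell markers fell (median -2.19). Of 3 thick ascending limb markers 1 rose, 1 fell and 1 was not called (median -0.33). Of 3 endothelial markers 1 fell and 2 were not called, and 0 of 3 podocyte markers were called. All 8 leukocyte markers rose, with a summed normalised read count of 1371 to 1642 in Con, 7790.5 to 13386 in Ade and 6694 to 13810.2 in Ade + IMC. All 4 fibroblast markers rose, from 1487 to 1801 in Con to 13488 to 18100.2 in Ade and 9608 to 15478 in Ade + IMC. The part of these cell types in the rise of Tsc22d3 and Fkbp5 and in the lower channel RNA was not tested. RNA of the adrenal cortex, the source of both steroids, was close to absent, with 0 to 5 raw counts of Cyp11a1, 0 to 3 of Cyp21a1 and 0 to 5 of Hsd3b1 per mouse. Star was at 29 to 71 counts, and the other 2 listed adrenal genes were not found among the genes used here. Star alone passed the filter, and it was called lower in Ade than in Con, at -0.52 on the log2 scale.

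The other genes of the pathway are shown as lists, named by role. Among 7 proteases and protease inhibitors that act on the channel, 4 rose, 2 fell and 1 was not called in Ade compared to Con, where 35.1% of all genes were called higher and 32.2% lower. Serpine2, an inhibitor of serine proteases (protease nexin-1), rose by 2.26 on the log2 scale, and the membrane protease Tmprss4 by 1.71. Prss8, the channel-activating protease prostasin, fell by 1.05, and Furin, which cleaves the alpha and gamma subunits, fell by 0.57.

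Of 14 kinases and ubiquitin pathway genes that act on distal sodium transport, 0 rose, 11 fell and 3 were not called, with a median log2 fold change of -0.41. Klhl3, the adaptor that marks WNK kinases for degradation, fell by 1.45, and the kinase Wnk1 fell by 0.79. Of 9 partner transporters and channels 8 fell and 1 was not called (median -0.79), with the largest changes in Kcnj16, a subunit of the potassium channel on the blood side (-1.28), and Fxyd4, a regulator of the sodium-potassium ATPase (-1.26). Over all genes, 32.2% were called lower. Fxyd4 was also counted among the principal cell markers, and Slc12a3, another of these partners, among the distal convoluted and connecting tubule markers. Of 6 receptor and chaperone genes 3 fell and 3 were not called. Fkbp4, the co-chaperone that helps the receptor move to the nucleus, fell by 0.45, and the glucocorticoid receptor Nr3c1 fell by 0.28.

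Of 13 steroid-responsive transcripts outside the 10, 4 rose, 5 fell and 4 were not called (median log2 fold change 0.19), shares close to the 35.1% higher and 32.2% lower over all genes. Edn1, the precursor of endothelin-1, rose by 2.37, and Ddit4, an inhibitor of mTOR complex 1 that also answers to hypoxia, by 1.78. The transcription factor Klf15 fell by 1.28, and Errfi1, a brake on the epidermal growth factor receptor, fell by 1.23. This list thus held genes that went with Tsc22d3 and Fkbp5 and genes that went the other way, and the cause was not tested. Immediate early genes, which mark recent cell activation, rose in 9 of 9, with Atf3 at 3.13 and Fos at 2.32.

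Since Per1 and Tsc22d3 vary over the day, clock genes were listed as well. Of 10 such genes, 3 rose, 3 fell and 4 were not called, again close to the shares over all genes. Bhlhe41 rose by 1.93 and Cry1 by 0.97, while Tef fell by 0.95 and Nr1d1 fell by 0.72. The time of day at which each kidney was taken is not given in the labels.

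**Figure D3:**
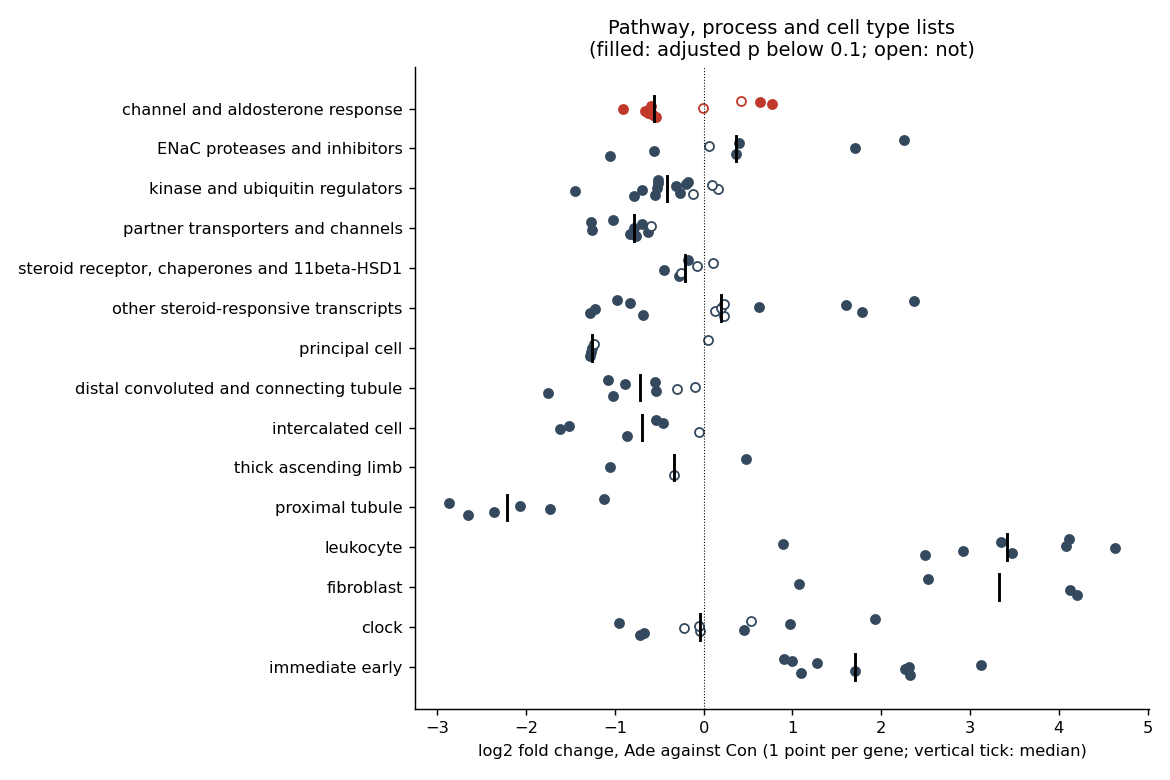
Log2 fold change of Ade against Con (x axis) for every tested gene of the channel and aldosterone response group and of the pathway, process and cell type lists (y axis); each point is 1 gene, filled where its adjusted p was below 0.1, and the black tick is the median of the list. The kinase, transporter and tubule lists lie mostly left of 0, and the leukocyte, fibroblast and immediate early lists lie to the right.

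The comparison of Ade + IMC with Con uses the same 5 Con mice, so its values are given beside those above and not as separate evidence. Of the 10 transcripts, 9 were called by edgeR's quasi-likelihood test, 6 lower and 3 higher, with 63.2% of 14578 genes called, 32.3% lower and 30.9% higher. Scnn1a was lower by a log2 fold change of -0.32 (adjusted p = 0.0486), Scnn1b of -0.46 (adjusted p = 0.0207) and Scnn1g of -0.50 (adjusted p = 0.00791). Hsd11b2 was at -0.40 (adjusted p = 0.0383), Nr3c2 at -0.65 (adjusted p = 4.45e-05) and Nedd4l at -0.53 (adjusted p = 0.00202). Tsc22d3 was higher by 0.85 (adjusted p = 0.000255), Fkbp5 by 0.65 (adjusted p = 0.000527) and Per1 by 0.49 (adjusted p = 0.0606), and Sgk1 was at 0.14 (adjusted p = 0.512). Groups did not overlap for Scnn1g, Nr3c2, Nedd4l, Tsc22d3 and Fkbp5, against 37.4% of genes. The calls of Scnn1a and Hsd11b2 depended on single mice. Both were lost without Con mouse 403 (edgeR, adjusted p = 0.103 and 0.107), and that of Scnn1a also without Ade + IMC mouse 212 (edgeR, adjusted p = 0.106). Without Ade + IMC mouse 311, 8 of the 10 were called, and 8897 of 14364 genes over all. The changes of these 8 were then -0.23 for Scnn1a, -0.34 for Scnn1b, -0.39 for Scnn1g, -0.32 for Hsd11b2, -0.62 for Nr3c2, -0.46 for Nedd4l, 0.78 for Tsc22d3 and 0.61 for Fkbp5. With upper quartile scaling neither Scnn1a nor Hsd11b2 was called (adjusted p = 0.145 and 0.106), and Scnn1a was not called when all 17 mice were fitted together (adjusted p = 0.101). Per1 lost its call without Con mouse 301 or 302 or Ade + IMC mouse 311 (adjusted p from 0.117 to 0.137). Adipocyte markers were high in the kidneys of 4 mice (Ade mouse 207 and Ade + IMC mice 211, 212 and 410). Their summed normalised read counts were 281 to 2109.5, beside 1.02 to 79.5 in the others. Without Ade + IMC mice 211, 212 and 410, 6 of the 10 were called, with Scnn1a, Scnn1b and Hsd11b2 not called (edgeR, adjusted p from 0.142 to 0.280). Calls over all genes fell as well, to 7145 of 14641, beside 9219 of 14578 with all mice. In Ade against Con, where only mouse 207 was left out, 8 of the 10 remained called, with 9487 of 14424 over all genes.

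Between Ade + IMC and Ade, the comparison that asks what IMC changed in adenine-fed mice, 0 of the 10 transcripts were called, as were 0.0% of 14696 genes (limma with a trend). At an unadjusted p below 0.05 there were 988 genes, 6.72% of those tested, and among the 10 only Nr3c2 was one of them. edgeR on the recovered reads also called 0 genes and DESeq2 called 37, none of them among the 10. The paper, which used DESeq2 at the same threshold, reported far more genes in each direction between these groups. The reason for this difference was not tested. Groups did not overlap for 0 of the 10 transcripts, against 0.212% of all genes. All 10 differences pointed up, with log2 fold changes from 0.05 to 0.32 and a median of 0.14, beside 0.01 over all genes. Several tubule cell lists had larger medians, at 0.52 for the principal cell, 0.40 for the intercalated cell, 0.37 for the thick ascending limb, 0.36 for the proximal tubule and 0.24 for the distal convoluted and connecting tubule, as did the podocyte (0.52), endothelium (0.28), adipocyte (1.102) and red cell (1.56) lists. Of these lists, 3 of 5 principal cell, 3 of 6 intercalated cell and 3 of 3 red cell markers were higher at an unadjusted p below 0.05. These 10 are not independent of each other, since they were measured in the same mice.

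Nr3c2 ran from 194 through a median of 206 to 249 in the Ade + IMC mice, and 2 of these 6 mice were above every Ade mouse. Its log2 fold change was 0.32 (95% interval 0.03 to 0.61, unadjusted p = 0.0344, adjusted p = 0.715 in limma). Mouse numbers begin with 2, 3 or 4 in every group, for a reason the labels do not give, and with this digit as a block the change was 0.40 and Nr3c2 was called (adjusted p = 0.0947), 1 of 133 genes so called. Without mouse 311, which had the lowest Nr3c2 of its group, the change was 0.35 (adjusted p = 0.448), and 0.39 with the block (adjusted p = 0.0761, 1 of 565 genes called). The interval for Nr3c2 without the block leaves out 0 but was not adjusted for the number of genes.

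For the channel itself the intervals were wide. Scnn1a ran from 1028 through a median of 1659 to 1746 in Ade + IMC mice, with 4 of 6 above every Ade mouse and 1 below every Ade mouse, and its log2 fold change was 0.25 (95% interval -0.07 to 0.57). Scnn1b ran from 285 through 471 to 577, and its change was 0.12 (95% interval -0.19 to 0.44). Scnn1g ran from 274 through 442 to 529.8, and its change was 0.14 (95% interval -0.16 to 0.44). The lowest mouse was mouse 311 for all 3 subunits, and also for Hsd11b2 and Nedd4l, while the same mouse had the highest Tsc22d3, Fkbp5 and Per1 of its group. This is the mouse whose library stood apart over all genes. Without it 0 of the 10 were called by limma, and the log2 fold changes were 0.36 for Scnn1a, 0.26 for Scnn1b and Scnn1g, 0.37 for Hsd11b2 and 0.15 for Nedd4l (adjusted p from 0.448 to 0.570), and 0.05 for Tsc22d3, 0.01 for Fkbp5 and 0.02 for Per1, with Sgk1 at 0.23.

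Hsd11b2 ran from 1129 through 1536 to 2140.2 in Ade + IMC mice, with a log2 fold change of 0.28 (95% interval -0.04 to 0.61). Sgk1 ran from 649 through 739.8 to 1223, with a change of 0.22 (95% interval -0.22 to 0.65). Nedd4l ran from 928 through 1114 to 1463, with a change of 0.09 (95% interval -0.16 to 0.33). None of these passed the test, and 0 lay inside each interval.

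The differences of the steroid-induced transcripts were smaller than their error. Tsc22d3 ran from 291 through 437 to 555 in Ade + IMC mice (log2 fold change 0.12, 95% interval -0.23 to 0.47). Fkbp5 ran from 322 through 439 to 485 (0.05, 95% interval -0.20 to 0.31), and Per1 from 456 through 503 to 840.3 (0.14, 95% interval -0.29 to 0.58). The Fkbp5 interval was the narrowest of these 3.

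In the pathway lists no gene was called between Ade + IMC and Ade by limma without the block, and the following had an unadjusted p below 0.05. Ndrg2, an aldosterone-induced transcript of the distal nephron, had a log2 fold change of 0.54 (unadjusted p = 0.000559, adjusted p = 0.601) and ran from 447 to 676 in Ade and 648 to 919 in Ade + IMC. Hsd11b1, the enzyme that makes active corticosterone, was at 0.55 (unadjusted p = 0.0196), and Zbtb16, a glucocorticoid-induced transcription factor, at 0.58 (unadjusted p = 0.00431). In the same list of steroid-responsive transcripts as Ndrg2 and Zbtb16, Edn1 and Ddit4 went the other way, at -0.60 (unadjusted p = 0.0160) and -0.37 (unadjusted p = 0.0254). Usp2, a deubiquitinase that acts on the channel, was at 0.32 (unadjusted p = 0.0402) and Serpine2 at -0.30 (unadjusted p = 0.00616). With the block, Ndrg2, Hsd11b1 and Aqp2 were called (adjusted p = 0.0602 in each), as was the clock gene Nr1d1 (adjusted p = 0.0883). Without the block Nr1d1 was at 0.48 (unadjusted p = 0.000416) and Tef at 0.38 (unadjusted p = 0.00301), and of the immediate early genes Atf3 was at -0.76 (unadjusted p = 0.0165) and Egr1 at -0.40 (unadjusted p = 0.0339). Without mouse 311 these list genes kept their signs, with Ndrg2 at 0.59, Hsd11b1 at 0.55, Zbtb16 at 0.58, Edn1 at -0.49 and Ddit4 at -0.44, and 0 genes were called without the block.

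Relations between the 10 transcripts from mouse to mouse were examined within groups. After the group mean was removed from log2 levels, all 45 pairs of the 10 transcripts were compared over 17 mice by permutation within groups with 100000 resamples. Scnn1b and Hsd11b2 gave r = 0.80 and rho = 0.88 (adjusted p = 0.0144 and 0.0018 over the 45 pairs), and r was 0.93, 0.79 and 0.82 in Con, Ade and Ade + IMC. Scnn1a and Scnn1g gave r = 0.80 and rho = 0.78 (permutation test, adjusted p = 0.0400 and 0.0355). These 2 pairs passed by both measures. Scnn1a with Scnn1b and Scnn1b with Scnn1g had r = 0.72 and 0.79 and passed by r only (permutation test, adjusted p = 0.0543 in each). By rho only, 3 further pairs passed, namely Nr3c2 with Sgk1 (rho = 0.75, adjusted p = 0.0583 by permutation test), Scnn1a with Sgk1 (rho = 0.69, adjusted p = 0.0692 by permutation test) and Scnn1a with Nr3c2 (rho = 0.68, adjusted p = 0.0756 by permutation test). Their r was 0.59 to 0.60 and did not pass (permutation tests, adjusted p from 0.119 to 0.144). In Con, Ade and Ade + IMC r was -0.06, 0.82 and 0.43 for Nr3c2 with Sgk1. It was 0.35, 0.99 and 0.30 for Scnn1a with Sgk1, and 0.25, 0.76 and 0.56 for Scnn1a with Nr3c2. For the subunits r was highest in the Ade + IMC group, which holds mouse 311. In Con, Ade and Ade + IMC it was 0.61, 0.48 and 0.98 for Scnn1a with Scnn1g, 0.69, 0.36 and 0.91 for Scnn1a with Scnn1b and 0.32, 0.36 and 0.92 for Scnn1b with Scnn1g, and the differences between groups were not tested.

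The relations between subunits rested in part on Ade + IMC mouse 311. Without this mouse r was 0.62 for Scnn1a with Scnn1g, 0.46 for Scnn1a with Scnn1b and 0.49 for Scnn1b with Scnn1g. For Scnn1b with Hsd11b2 r was 0.79 without it, and none of these 4 pairs passed the test without this mouse (permutation tests, adjusted p = 0.1003 for Scnn1b with Hsd11b2 and 0.151 for Scnn1a with Scnn1g). Without the 2 mice farthest from the median of the first gene, r was 0.63 for Scnn1a with Scnn1g and 0.74 for Scnn1b with Hsd11b2, and neither passed the test over 45 pairs (permutation tests, adjusted p = 0.254 and 0.226), although r stayed close to its value over all mice for Scnn1b with Hsd11b2. With the mean of each first digit also removed, r was 0.87 and 0.78 for these pairs. For the pairs that passed by rho only, r was then -0.09 (Nr3c2 with Sgk1), 0.43 (Scnn1a with Sgk1) and 0.25 (Scnn1a with Nr3c2). Only 384 arrangements of the mice exist within group and digit, so a single pair could not reach an adjusted p below 0.117 and nothing is read from this test. Tsc22d3 with Per1 gave r = 0.59 and did not pass (permutation test, adjusted p = 0.119).

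**Figure D4:**
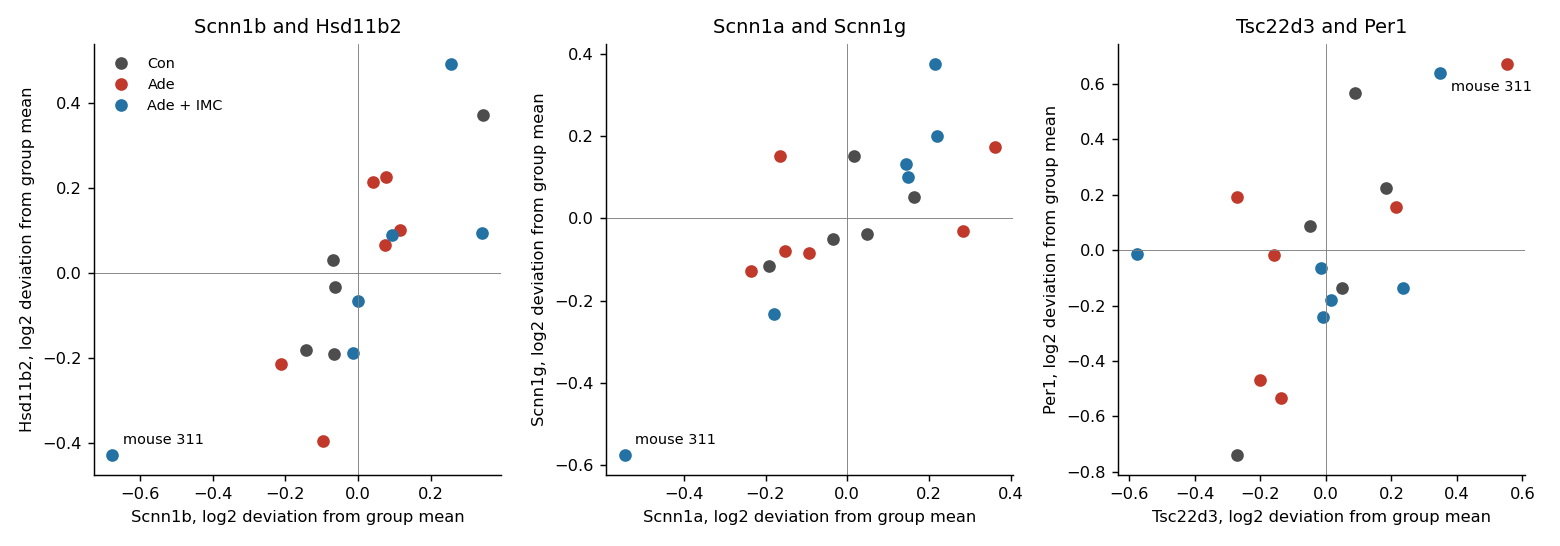
Deviation of each of the 17 mice from its group mean, as log2 normalised read count, for Scnn1b (x) and Hsd11b2 (y), Scnn1a (x) and Scnn1g (y), and Tsc22d3 (x) and Per1 (y); colours are the Con, Ade and Ade + IMC groups. Mouse 311 is at the lower left in the first 2 panels and at the upper right in the third, and r in the first panel is 0.79 without it.

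The genes most like 4 of the transcripts were looked up over the 17 mice by the Pearson correlation of log2 levels with the group means removed, among 14634 genes, as a description. Mouse 311 was among the 17, and the search was not repeated without it. For Scnn1g the genes were Evc2 (r = 0.90), Sel1l3 (r = 0.87) and Lrrc28 (r = 0.86). For Hsd11b2 they were Gstt1, Mcee and Atp5j (r = 0.94, 0.94 and 0.93). For Sgk1 they were Slc43a2, Ankrd40 and Eda (r = 0.84, 0.82 and 0.82), and for Tsc22d3 Tmem204, Cdh13 and Gsn (r = 0.86, 0.86 and 0.84). All values of a mouse come from 1 library and share its depth. With the log2 library total, r was -0.22 for Scnn1g, -0.39 for Hsd11b2, -0.03 for Sgk1 and 0.07 for Tsc22d3.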

How the data were processed

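RNA-seq was performed on whole kidney RNA (TruSeq libraries; the labels name an RNeasy kit for extraction and the paper's methods a Qiagen miRNA kit), with 1 library per mouse, so that p-values measure the spread between mice. Reads were single-end and, according to the paper's methods, were mapped to mm10 with STAR, whereas the submitters' processing notes list Trimmomatic 0.39, FastQC 0.11.8, Bowtie2 2.2.5, HTSeq 0.9.1 and DESeq2. Which aligner made the tables is thus unclear, and neither the annotation nor the strand setting is given in the sources used here. The authors deposited raw counts per gene for the Con and Ade mice (21004 genes). A second table deposited by the authors holds the Ade and Ade + IMC mice as a signal, each count being divided by a DESeq2 size factor (21287 genes). A further table holds fold changes and p-values of the authors' own test, which were not used; only its pairs of Ensembl ID and gene symbol were read, and these named 20339 of the 20634 genes shared by both tables.

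Each of the 233731 deposited normalised values above 0 was a whole multiple of 1 read (100% within 0.001), so reads were recovered, and for the 6 Ade mice 0 of 123804 values differed from the raw counts. No library was a repeat of another (lowest chi-square over its degrees of freedom within a group, 4.21). Diet groups came from the labels, which give no pairing.

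Ade and Ade + IMC were compared to Con by edgeR's quasi-likelihood test (edgeR 4.0.16, TMM scaling, filterByExpr, R 4.3.3), the latter on recovered reads. Ade + IMC was compared to Ade by limma 3.58.1 (trend option) on log2(normalised count + 1), for genes with a mean of at least 10. A fold change on this scale understates that of low genes. The call threshold was an adjusted p (Benjamini-Hochberg) below 0.1. Levels used size factors over the 17 mice. Differences in ratios were tested by exact permutation (two-sided). Alternatives were DESeq2 1.42.0, other scalings, filters, pseudocounts and thresholds, a block on the leading digit of each mouse number and leaving out mice. Those without 4 mice with high adipocyte marker RNA, without mouse 311 and without low principal cell markers or with Gata3 alone were chosen after seeing the data. The scripts were tested on simulated data. The genes and lists were chosen with earlier results of these data known. Text names the 10 genes, the 2 called genes of each pathway or process list with the largest rise and fall in Ade, up to 2 per list with the smallest unadjusted p below 0.05 in Ade + IMC, adrenal genes and the nearest genes by correlation. Aqp2, Aqp3, Avpr2, Elf5 and Gata3, and Edn1 and Ddit4 in Ade + IMC against Ade, were named after their values were seen. Promoters are from RefSeq and exons from GENCODE M21, both GRCm38.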

Additional observations from a re-analysis of the deposited data

Results flagged for a closer look

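Among 51 sets of values (each of the 10 transcripts, 3 subunit ratios and 4 marker ratios in each group), 4 had 1 mouse far from the others of its group by Dixon's test, which flags about 1 set in 20 by chance. Scnn1b was at 803 in Con mouse 403, with the next Con mouse at 606. Sgk1 was at 1223 in Ade + IMC mouse 410 and at 751 in the next mouse. Per1 was at 840.3 in Ade + IMC mouse 311, next to 534. The log2 ratio of Scnn1g to Scnn1a was -1.71 in Ade + IMC mouse 310 and -1.89 in the next mouse. The Sgk1 pattern in the Ade group, 2 mice near 1000 and 4 near 550, is not of this kind, since no single mouse stands alone.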

How the results depend on the processing

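The 8 calls in Ade against Con kept their direction and were past the threshold under each alternative run, including upper quartile and median of ratios scaling, DESeq2, the block and leaving out each mouse. Between Ade + IMC and Ade, the 0 genes called became 37 with DESeq2 on recovered reads, 133 with the block and 565 with the block and without mouse 311 (1 of the 10, Nr3c2, in both, with Fkbp5 at -0.014 in the latter) and 1 without the 4 mice with high adipocyte markers, and this block on the first digit is not a pairing, since the labels do not say what the digit marks and give no replicate numbers (those used here follow sample order and pair nothing). Sgk1 in Ade against Con was 0.051 with upper quartile scaling and 0.055 without Ade mouse 207, the Ade mouse with high adipocyte markers, and from -0.15 to 0.11 with 1 mouse left out. Leaving out 1 mouse, Sgk1 in Ade + IMC against Con ranged from -0.016 to 0.26 and Fkbp5 in Ade + IMC against Ade from -0.025 to 0.12. Tsc22d3 in Ade + IMC against Ade was -0.0046 without these 4 mice. The log2 ratio of Scnn1b to Scnn1a in Ade against Con ranged from -0.075 to 0.051, and that of Scnn1g to Scnn1b in Ade + IMC against Ade from -0.025 to 0.060, with 1 mouse left out. Of the 8 comparisons relative to principal cell markers, 7 passed with Aqp2 alone, 4 with Gata3 alone, and 0 to 4 with 1 mouse left out. In Ade against Con these differences changed sign with Aqp2 alone for Scnn1b (0.63), Scnn1g (0.57) and Hsd11b2 (0.54), without Avpr2 for Scnn1b (0.29), Scnn1g (0.23) and Hsd11b2 (0.19), without Avpr2 and Elf5 for the same 3 (0.34, 0.28 and 0.25), and for Scnn1a with a pseudocount of 0.5 (-0.038) and with Gata3 alone (-0.59). In Ade + IMC against Ade the sign changed with Gata3 alone for Scnn1a (0.029) and Hsd11b2 (0.062). With 1 mouse left out the differences in Ade against Con ranged from -0.20 to 0.15 for Scnn1a, -0.22 to 0.19 for Scnn1b, -0.27 to 0.11 for Scnn1g and -0.31 to 0.10 for Hsd11b2. Of the 45 relations, 4 passed by r and 5 by rho, whose alternatives were not run, and by r 0 passed without the 2 farthest mice, 0 with group and digit means removed (384 arrangements, too few for a single pair to pass), 0 without mouse 311 and 0 without the 4 adipocyte marker mice. The causes were not tested.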
